A study of Mus musculus with 12 samples.

Results

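Mpzl2 and its relatives Mpzl1 and Mpzl3 encode small cell surface proteins of the immunoglobulin superfamily. The members were all probes whose accession maps to one of these symbols, and 4 of the 39429 probes on the array did so. They stand for 3 genes of 25027 tested, with 1 probe each for Mpzl1 and Mpzl2 and 2 for Mpzl3. The set was chosen by the measured level of Mpzl2, which was higher in the germ cell fraction of knockout mice and not in their Sertoli cell fraction. The values of Mpzl2 are therefore given as a description, with no test, while Mpzl1 and the brighter probe of Mpzl3 were tested. All 4 probes passed the filter on dim probes, the second Mpzl3 probe only through its signal in control germ cells.

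RNA was hybridised to 1-colour Agilent arrays, 1 for each cell fraction of each mouse, and all mice were C57BL/6J males. The groups were germ cells and Sertoli cells of TAp73 knockout mice 120, 86 and 72, and the same fractions of control mice 99, 73 and 74, which gives 12 arrays in 4 groups of 3. Knockout mouse 120 was 4 months old, control mouse 99 was 5 months old and the other mice were 8 months old. The source names call all 3 control mice wildtype, whereas the sample titles call mice 73 and 74 het and only mouse 99 WT. Trp73 encodes several forms of p73, a relative of the tumour suppressor p53, and TAp73 names those with a transactivation domain. The part of Trp73 that was deleted, and how the fractions were separated, are not given in the sources used here.

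The proteins of this small family have a single immunoglobulin-like domain outside the cell, a membrane span and a tail inside it. Such domains can bind a partner on the facing membrane and so hold cells together. MPZL2, also called epithelial V-like antigen, is a homophilic adhesion protein of epithelia, first studied in the thymus. MPZL1, also called PZR, is a glycoprotein whose phosphorylated tail binds the tyrosine phosphatase SHP-2, and MPZL3 is known from skin and hair. In the testis, germ cells are held to Sertoli cells by junctions that contain other immunoglobulin-type proteins, such as nectins and CADMs, together with cadherins.

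The levels below are log2 of the processed signal relative to the 75th percentile of the same array, so a level of 0 is the brightness of that percentile and a step of 1 is a doubling. That percentile ranged from 1354.9 to 5350.4 in signal, the lowest on the control Sertoli array of mouse 74, which stood apart from the rest. Between 64.09% and 78.89% of probes per array were well above background. A slide carried 4 arrays, those of 1 knockout and 1 control mouse (mice 120 and 99 on slide 1, 86 and 73 on slide 2, 72 and 74 on slide 3). The 3 probes of Trp73, the targeted gene, were well above background on every knockout array, and in both fractions their knockout means exceeded the control means. On its brightest probe (A_52_P410636) the knockout germ mean was -2.35 ± 0.44 and the control germ mean -3.35 ± 0.83 (SD, n = 3), a difference of 1.0 that was 0.54 without control mouse 99. The other probes (A_52_P193555 and A_55_P1988133) were not well above background in mouse 99, the only mouse titled WT. A_52_P193555 read -9.40 in its germ cells and -9.42 in its Sertoli fraction, against -3.63 and -2.50 in control mouse 73, -4.15 and -3.22 in control mouse 74 and -3.29 to -1.52 on the knockout arrays. A_55_P1988133 read -8.73 in germ cells of mouse 99, against -5.10 and -4.39 in those of mice 73 and 74. Which part of the gene these probes cover is not given in the sources used here, and the words knockout and control stand for the labels. The fraction labels were also checked against markers. All 10 spermatocyte and all 12 spermatid markers tested were lower in Sertoli than in germ samples of control mice. Of 14 Sertoli markers tested, 5 were higher there and 8 lower, and Fshr, the receptor for follicle-stimulating hormone, was not well above background on any Sertoli array. All 7 fibroblast and all 6 peritubular myoid markers were higher in that fraction, with median log2 differences of 6.67 and 5.78. These counts are of genes with an adjusted p under 0.05 (limma). Of all genes, 39.8% were higher and 36.5% lower in that fraction of control mice by the same measure. The words Sertoli fraction below name the label.

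Mpzl2 was read by a single probe, A_52_P322421, which was well above background on all 12 arrays. In germ cells of control mice 99, 73 and 74 its level was -5.86, -5.16 and -5.83. In germ cells of knockout mice 120, 86 and 72 it was -2.65, -2.26 and -2.20. Every knockout array was thus above every control array, and the lowest knockout value was that of mouse 120. The group means were -5.62 ± 0.40 and -2.37 ± 0.25 (SD, n = 3), a log2 difference of 3.25 ± 0.24 (SE) or 9.48-fold. Of all genes tested, 6.57% had knockout germ arrays that all lay above the control germ arrays, and by the size of the difference Mpzl2 stood at place 13 from the top of 25027. These are the values that the choice of the gene rests on. In RNA of a whole fraction, more cells that express a gene and more RNA per cell cannot be told apart.

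In processed signal, control germ cells gave 80.7, 146.2 and 61.1 for Mpzl2. The dimmest probes well above background on those arrays read 32.7, 33.7 and 34.4, so the control germ signal was weak but measured. Knockout germ cells gave 692.7, 1118.1 and 825.9. The fold depends on the signal used and on any constant added to it. With the local background subtracted from the median spot signal and 50 added, the log2 difference was 2.40. A normexp correction of that signal, also with 50 added, gave 2.43. An added constant shrinks the fold of a weak signal, and its part was not told apart from that of the background. Within slides 1, 2 and 3 the knockout minus control difference was 3.21, 2.90 and 3.63, so each slide showed the same direction. Without both mice titled het, which leaves mouse 99 as the only control, it was 3.49. Among the 8-month-old mice alone, where every control mouse is titled het, it was 3.26.

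In the Sertoli fraction Mpzl2 lay at the level of knockout germ cells in both genotypes. Control mice 99, 73 and 74 gave -2.02, -2.08 and -2.43 there, and knockout mice 120, 86 and 72 gave -2.49, -2.15 and -2.03. The means of -2.18 ± 0.22 and -2.22 ± 0.24 differed by -0.05 ± 0.24, and the arrays of the 2 genotypes overlapped. In order of level the groups were control germ, knockout germ, knockout Sertoli and control Sertoli, and the last 3 overlapped in their single arrays. The Sertoli fraction exceeded the germ fraction by 3.44 ± 0.24 in control mice and by 0.15 ± 0.24 in knockout mice, and the knockout effects of the fractions differed by -3.29 ± 0.34 (Sertoli minus germ). With the germ cell comparison, the difference in control mice shares the control germ arrays and that in knockout mice the knockout germ arrays. The difference of the knockout effects shares both. The distance between fractions in knockout mice depended on the scaling, at 0.63 in the authors' log2 values and 1.0 with the array median in place of the 75th percentile.

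**Figure D1:**
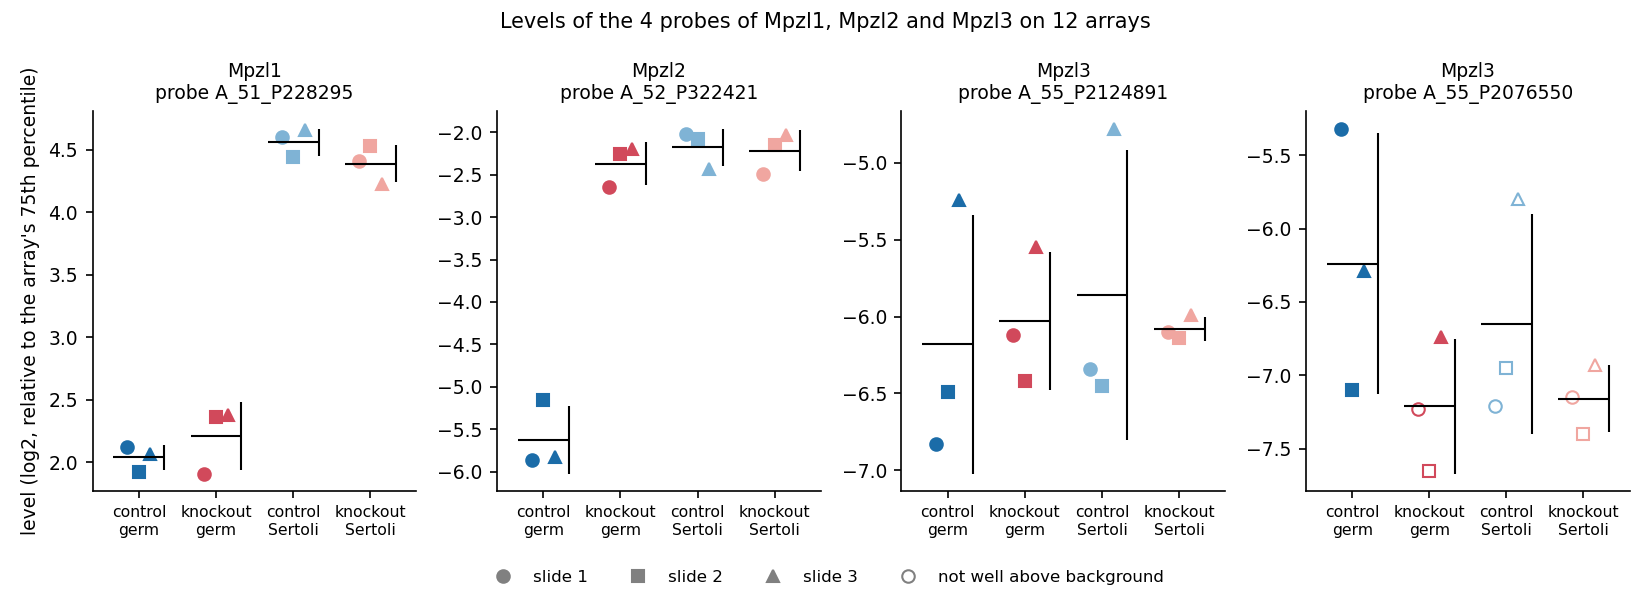
Level of each member probe on each of the 12 arrays (vertical axis, log2 relative to the array's 75th percentile; each panel has its own range, since levels of different probes are not comparable) in the 4 groups; symbols mark the slide, open symbols a spot not well above background, horizontal bars the mean and vertical bars the SD of 3 arrays. The control germ arrays of Mpzl2 lie between -5.86 and -5.16 and the other 9 arrays between -2.65 and -2.02, while Mpzl1 separates by fraction and Mpzl3 by neither.

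Mpzl1, the SHP-2 binding member, differed between fractions in both genotypes and showed no detectable difference between genotypes. Its probe A_51_P228295 read 2.12, 1.92 and 2.07 in germ cells of control mice 99, 73 and 74, and 1.91, 2.36 and 2.38 in germ cells of knockout mice 120, 86 and 72. In the Sertoli fraction it read 4.60, 4.44 and 4.66 in the control and 4.41, 4.53 and 4.23 in the knockout mice. All 6 Sertoli arrays lay above all 6 germ arrays, and within each fraction the genotypes overlapped. Of all genes, 39.0% had Sertoli arrays that all lay above the germ arrays in control mice, and 41.5% in knockout mice. The Sertoli fraction was higher by 2.53 ± 0.18 in control mice (SE, 5.77-fold, limma with Benjamini-Hochberg adjustment, adjusted p 1.58e-07) and by 2.18 ± 0.18 in knockout mice (4.52-fold, adjusted p 6.17e-07). Such a difference was common, since 39.8% of all genes passed as higher in the Sertoli fraction in control mice and 37.9% in knockout mice. With the array median as the scale, 12768 genes were higher and 7447 lower in control mice, against 9967 and 9146 here, and the median of all genes moved from 0.21 to 0.88. Mpzl1 stayed higher in the Sertoli fraction under every alternative run, at 2.14 to 3.20 in control mice.

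The knockout minus control difference of Mpzl1 was 0.18 ± 0.18 in germ cells, with a 95% interval from -0.22 to 0.57 (limma, adjusted p 0.997). For Sertoli samples it was -0.17 ± 0.18, with an interval from -0.57 to 0.22 (limma, adjusted p 1). Within slides 1, 2 and 3 the germ cell difference was -0.21, 0.44 and 0.31, so the sign was not the same on every slide. The knockout effects of the fractions differed by -0.35 ± 0.25 (limma, adjusted p 0.999), with an interval from -0.91 to 0.21.

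Mpzl3 was dim on both probes. On the probe with the higher mean level, A_55_P2124891, the processed signal was 32.7 to 92.1 over all 12 arrays, and every spot was well above background. Its levels in germ cells were -6.83, -6.49 and -5.24 in control mice 99, 73 and 74 and -6.12, -6.42 and -5.55 in knockout mice 120, 86 and 72. Those in the Sertoli fraction were -6.34, -6.45 and -4.78 in control and -6.10, -6.14 and -5.99 in knockout mice. The groups overlapped in every comparison, and the highest level was that of the array with the lowest overall signal, control Sertoli of mouse 74. There the spot read 49.5 in processed signal, inside the range of the other arrays. The knockout minus control difference was 0.16 ± 0.49 in germ cells (95% interval -0.93 to 1.24, limma, adjusted p 0.997) and -0.22 ± 0.49 in the Sertoli fraction (-1.31 to 0.87, adjusted p 1). Leaving out knockout mouse 72 or control mouse 99 turned the germ cell value to -0.09 or -0.17, and leaving out control mouse 74 turned the Sertoli value to 0.32, so the data give no direction.

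Between fractions this Mpzl3 probe differed by 0.33 ± 0.49 in control mice (limma, adjusted p 0.556) and by -0.05 ± 0.49 in knockout mice (adjusted p 0.935). Other scalings moved these values past the threshold, to 1.17 and 1.10 in the authors' log2 values (limma, adjusted p 0.000497 and 0.000783) and to 1.19 and 1.11 after quantile normalization. The difference of the knockout effects was -0.38 ± 0.70 (limma, adjusted p 0.999). No direction between fractions is therefore given for Mpzl3.

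The second Mpzl3 probe, A_55_P2076550, was well above background on all 3 control germ arrays, on 1 of 3 knockout germ arrays and on none of the 6 Sertoli arrays. In control germ cells it read 117.2 in mouse 99, 38.1 in mouse 73 and 44.4 in mouse 74, and in knockout germ cells 28.9, 26.6 and 35.5 in mice 120, 86 and 72. The probe was kept only for its signal in control germ cells, so its differences are a description, with no test. The knockout minus control log2 difference in germ cells was -1.91 on slide 1, which holds mouse 99, and -0.55 and -0.45 on slides 2 and 3.

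**Figure D2:**
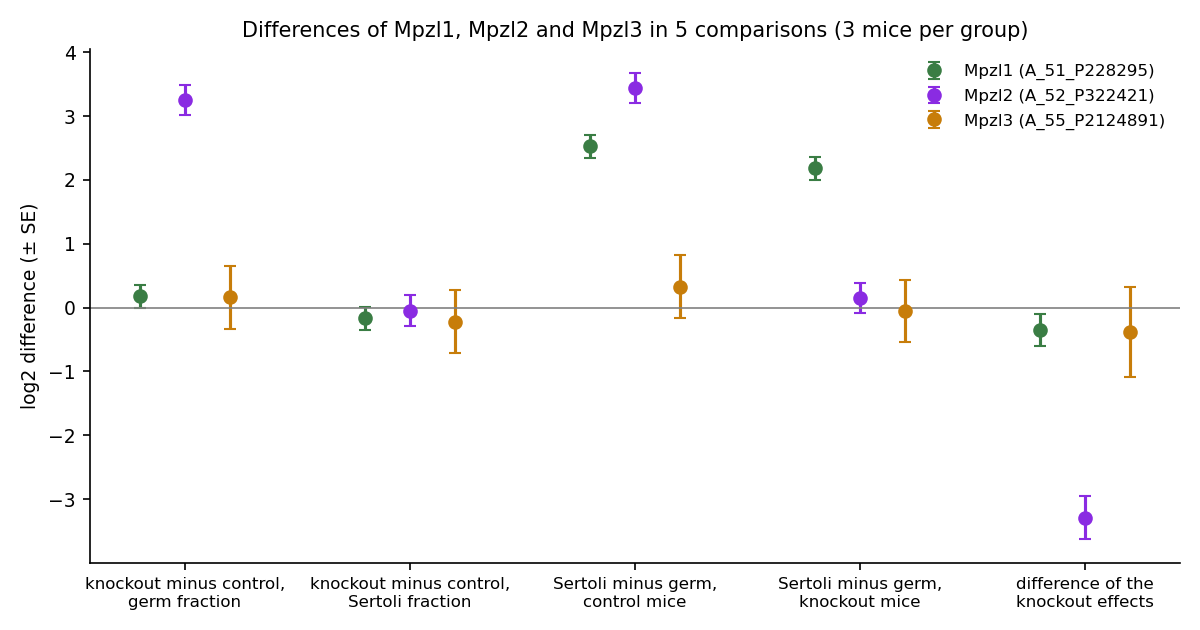
Log2 difference ± SE (vertical axis) of Mpzl1, Mpzl2 and Mpzl3, 1 probe each, in the 5 comparisons (horizontal axis), from a fit over 12 arrays with 3 mice per group. Mpzl2 stands at 3.25 in germ cells and -0.05 in the Sertoli fraction, while Mpzl1 and Mpzl3 stand between -0.22 and 0.18 in both.

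In germ cells 0.22% of all genes passed between genotypes (55 genes of 25027, limma), 7.34% had an unadjusted p under 0.05, and neither Mpzl1 nor Mpzl3 was among them. This count changed when a single mouse was left out, which also leaves fewer arrays to estimate the spread. It was 3 without knockout mouse 86 or 72 or control mouse 73, 4 without control mouse 99, 30 without control mouse 74 and 130 without knockout mouse 120. Which of these made the count change was not tested. Between genotypes of the Sertoli fraction no gene passed in limma, while 756 (3.02%) had an unadjusted p under 0.05, and 5 genes passed without control mouse 99. The difference of the knockout effects passed for 0.00799% of genes, 2 in all, and for 0 with the mouse as a fixed block. It was 0 without knockout mouse 86 or 72 or control mouse 73, and 1 without control mouse 99 or 74.

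Mpzl2 and Mpzl3 are direct neighbours on chromosome 9 in the order that RefSeq gives for assembly GRCm38.p6, and the immunoglobulin gene Jaml, which encodes a junctional adhesion protein of leukocytes, is the next tested gene after Mpzl3. The array grid names the older build mm9, so no positions are given. Of the 5 tested genes on each side of Mpzl2, none passed between genotypes in germ cells (limma), where 0.22% of all genes passed. Of these 10 genes, 9 had log2 differences between -0.64 and 0.59. Mpzl3 and Jaml, the closest on one side, gave 0.16 ± 0.49 and 0.32 ± 0.30, and Cd3e, a T cell receptor subunit on the other side, gave 0.59 ± 0.65. Il10ra, the interleukin-10 receptor chain of leukocytes, stood highest at 1.40 ± 0.28 (limma, adjusted p 0.099). Its levels were -5.06, -4.84 and -4.73 in germ cells of control mice 99, 73 and 74. In those of knockout mice 120, 86 and 72 they were -3.95, -3.00 and -3.49, without overlap. Of all genes, 6.57% had knockout germ arrays that all lay above the control germ arrays. Around Mpzl1 on chromosome 1, none of 10 neighbours passed either, against the same 0.22% of all genes. The gene beside Mpzl1, Rcsd1, a regulator of actin capping, gave 0.55 ± 0.20 (limma, adjusted p 0.441).

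**Figure D3:**
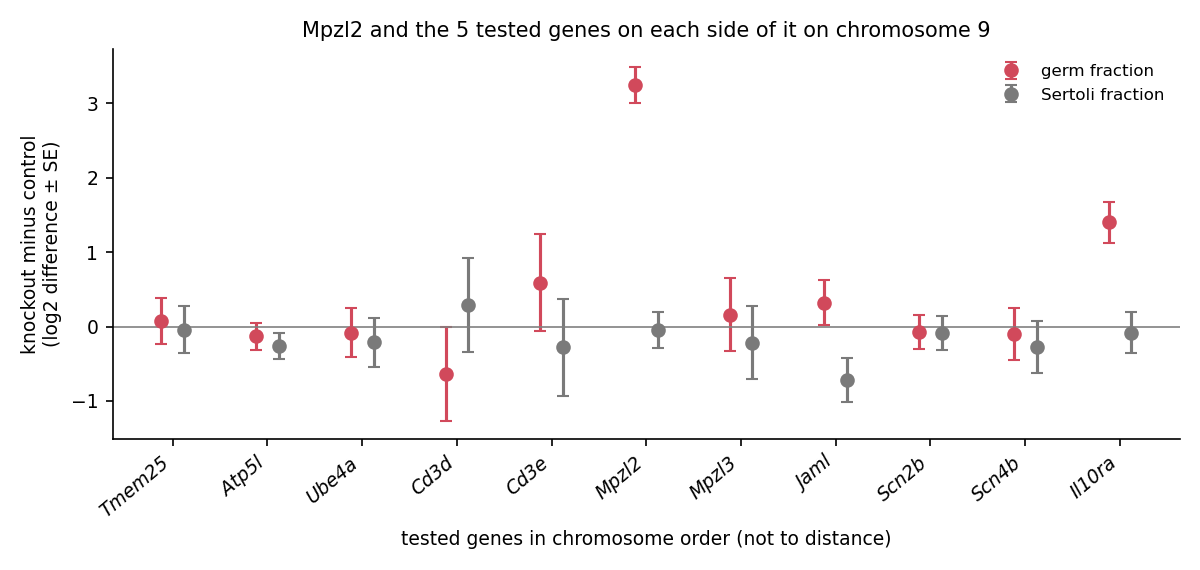
Knockout minus control log2 difference ± SE (vertical axis) in the germ and Sertoli fractions for Mpzl2 and the 5 tested genes on each side of it on chromosome 9, in chromosome order and not to distance. Mpzl2 stands at 3.25 in germ cells, Il10ra at 1.40 and the other 9 genes between -0.64 and 0.59.

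The genes most like Mpzl2 were those with the smallest root mean square difference from it over the 12 arrays, after each gene was centred on its own mean. They were Tnni1 (0.512), Syk (0.546), Extl1 (0.567), Aqp5 (0.604), Lcp1 (0.607), Wfdc18 (0.628), Chst8 (0.635), Itgax (0.654), Il1r2 (0.693) and Trem2 (0.711), where the median over 15800 named genes was 1.61. Since they were picked for their likeness to Mpzl2, their values are a description. Tnni1 encodes the slow skeletal muscle troponin I and Aqp5 a water channel of glands. Syk (a tyrosine kinase), Lcp1 (an actin bundling protein), Itgax (the integrin chain CD11c) and Trem2 (a lipid receptor of macrophages) are expressed in leukocytes, and Il1r2 is a decoy receptor for interleukin-1.

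In germ cells of control mice 99, 73 and 74 Syk read -4.75, -5.39 and -4.80, and in those of knockout mice 120, 86 and 72 it read -3.15, -2.25 and -2.35. Aqp5 read -3.43, -3.82 and -3.81 in control and -1.68, -0.01 and -0.15 in knockout germ cells. In each of the 10 genes every knockout germ array lay above every control germ array, as in 6.57% of all genes. The germ cell log2 differences ran from 1.74 for Il1r2 to 3.07 for Aqp5. The knockout germ array of mouse 120 was the lowest of its group in all 10 genes, as in Mpzl2. The choice of these genes for their likeness to Mpzl2 favours both the lack of overlap and this place of mouse 120. Extl1 was well above background on 0 of 3 control germ arrays, and Chst8 and Il1r2 on 1 of 3, so the size of their differences is less certain.

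**Figure D4:**
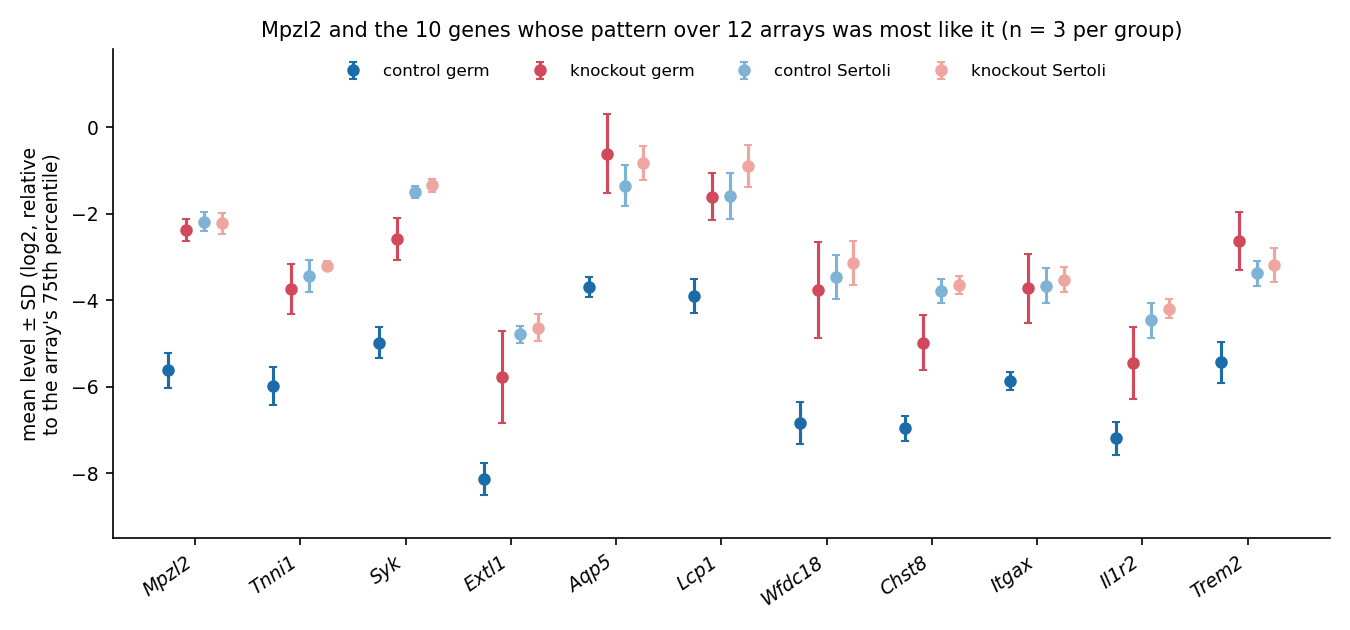
Mean level ± SD over 3 arrays (vertical axis, log2 relative to the array's 75th percentile) of Mpzl2 and the 10 genes most like it, in the 4 groups. Control germ cells are the lowest group for each gene, at -5.62 for Mpzl2, and in Mpzl2 the knockout germ mean of -2.37 lies beside the Sertoli means of -2.18 and -2.22.

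Markers of other testis cells were read on the same arrays. In the germ fraction the median knockout minus control difference was 1.35 over 6 Leydig cell, 0.91 over 12 macrophage and 0.84 over 7 fibroblast markers. It was 0.74 over 6 myoid and 0.55 over 14 Sertoli markers, against -0.04 over all genes. In the Sertoli fraction the same lists, in this order, had medians of 0.25, 0.09, 0.0, -0.42 and 0.26, against -0.1 over all genes. In the germ fraction 1 of these markers passed in limma, the fibroblast gene Pdgfra, where 0.22% of all genes passed. In those lists 3, 6, 5, 2 and 3 markers had an unadjusted p under 0.05 there, against 7.34% of all genes. The 7 endothelial markers had a median of 0.41 in the germ fraction, all above 0, and none passed in limma (0 at an unadjusted p under 0.05). For markers of germ cells themselves the germ fraction median was -0.07 over 10 spermatogonia markers (4 above 0), -0.09 over 10 spermatocyte markers (1 above 0) and -0.23 over 12 spermatid markers (2 above 0). None of them passed in limma (0 at an unadjusted p under 0.05 in each list). The summed Leydig marker signal, in units of the array's 75th percentile, was 11.2 to 16.2 in knockout and 5.76 to 9.38 in control germ cells, and 11.8 to 15.3 in the Sertoli fraction. The summed macrophage signal was 32.9 to 36.1 in knockout against 39.2 to 48.0 in control germ cells. Without Aif1, a macrophage marker left out after its high germ cell level of 5.36 in control mice was seen, the sums were 2.5 to 4.45 against 2.04 to 2.09, with 2.09 to 4.32 in the Sertoli fraction. The myoid sum was 24.7 to 31.3 in knockout and 14.9 to 19.9 in control germ cells, and 366 to 766 in the Sertoli fraction. For fibroblast markers the sums were 3.14 to 4.62, 1.85 to 3.07 and 257 to 624. Endothelial sums overlapped, at 3.13 to 3.8 in knockout and 2.80 to 3.73 in control germ cells.

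Markers of epithelium from the rete testis and ducts had a median knockout minus control difference of 0.08 in germ cells over 8 genes, 5 of them above 0. Of these markers 0 passed in limma and 1 had an unadjusted p under 0.05, against 7.34% of all genes. Their sum was 1.62 to 2.01 in knockout against 2.17 to 2.26 in control germ cells. Part of that sum came from Cldn3, a tight junction claudin, whose mean level was -0.23 in control and -1.05 in knockout germ cells. Without Cldn3, left out after its level was seen, the sums were 0.982 to 1.51 and 1.12 to 1.61, which overlap. Over 5 T cell markers and over 6 Schwann cell markers the median was -0.01 each. Sertoli markers summed to 123 to 142 in knockout and 91.9 to 110 in control germ cells. The part of these cells in the level of Mpzl2 was not tested.

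Relatives with immunoglobulin-like domains were compared with the members from a list of 18 genes, of which 17 were tested. None passed between genotypes in germ cells (limma, 0 with an unadjusted p under 0.05, against 7.34% of all genes). Their median difference was 0.16 with 12 above 0, against -0.04 over all genes. Among those with the smallest p were Vsig8 (-0.32 ± 0.19) and F11r (0.55 ± 0.36), the junction protein JAM-A. None passed in the Sertoli fraction either (limma, 2 at an unadjusted p under 0.05, against 3.02% of all genes).

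Between fractions of control mice 7 of the 17 relatives were higher in the Sertoli fraction and 3 lower, where 39.8% of all genes passed as higher and 36.5% as lower. Cxadr (the coxsackievirus and adenovirus receptor) differed by 3.83 ± 0.27, F11r by 3.71 ± 0.36 and Gpa33 by 2.65 ± 0.27 (limma, adjusted p 1.71e-07, 2.46e-06 and 3.88e-06). Jaml differed by 4.72 ± 0.30 (limma, adjusted p 5.88e-08), a size that is less certain because its probe was well above background on 1 of 3 control germ arrays. Over the alternatives run it lay between 3.09 and 5.39. Clmp and Vsig8 were also higher, by 1.94 and 1.62. Igsf11 and Vsig1, both adhesion proteins, were well above background on every control germ array and on no control Sertoli array, and were at least 106.7-fold and 65.2-fold lower in the Sertoli fraction. Igsf5 was lower by a smaller amount, -1.80 ± 0.55, with its probe well above background on 2 of 3 control Sertoli arrays. It did not pass under 5 of the 20 alternatives run, among them those without control mouse 99 (-1.35) or 73 (-1.64). Over the alternatives Igsf5 lay between -2.69 and -0.34. Over the 17 genes the median was 0.37, against 0.21 over all genes, and in knockout mice 7 were higher and 4 lower, where 37.9% of all genes were higher and 37.1% lower.

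**Figure D5:**
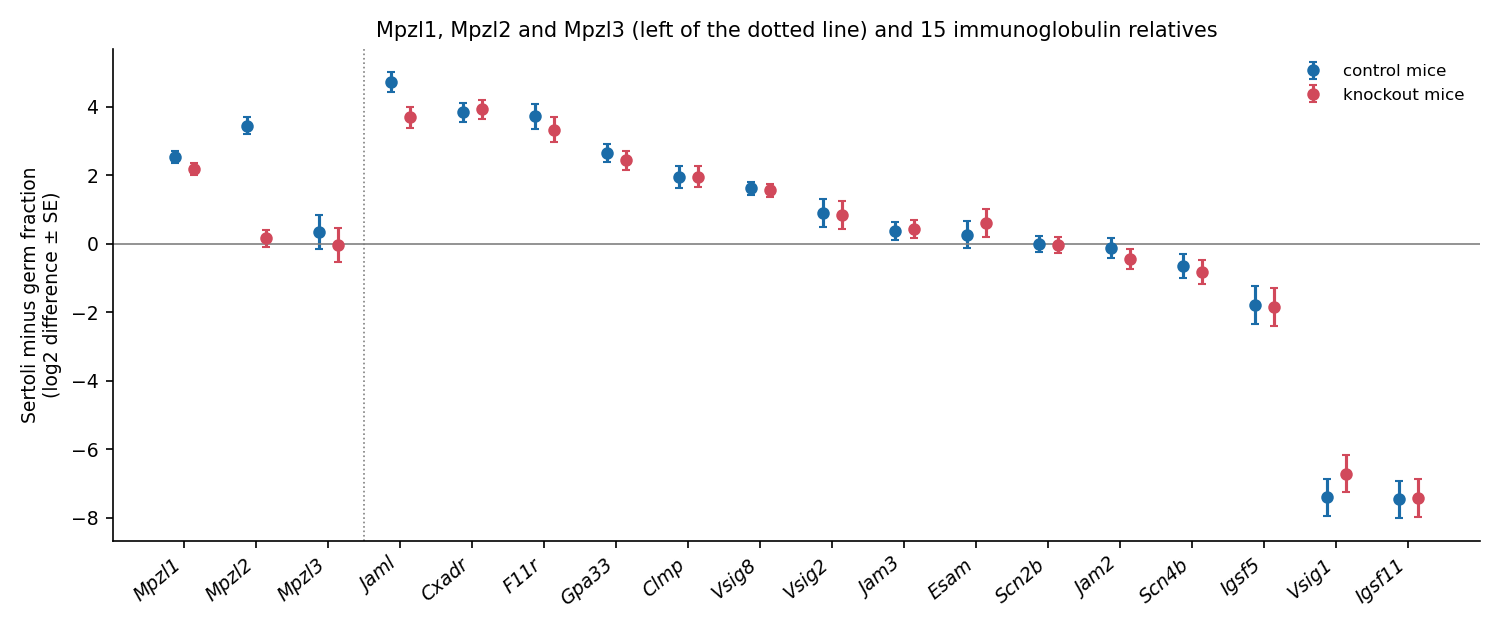
Sertoli minus germ log2 difference ± SE (vertical axis) in control and knockout mice for the 3 members and for 15 relatives ordered by the control value. Mpzl2 shows 3.44 in control against 0.15 in knockout mice, Mpzl1 2.53 against 2.18. The values of Vsig1, Igsf11, Igsf5 and Scn4b include Sertoli spots, and those of Jaml germ spots, not well above background.

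Of 10 genes of phosphotyrosine signalling, which include the binding partner of MPZL1, 9 were tested. Between fractions of control mice 5 were higher on the Sertoli side and 2 lower, beside the 39.8% and 36.5% of all genes. Ptpn11, which encodes SHP-2, was higher in the Sertoli fraction of control mice by 3.86 ± 0.28, Grb2 by 3.41 ± 0.20 and Cttn (cortactin) by 2.79 ± 0.37 (limma, adjusted p 2.26e-07, 2.9e-08 and 3.53e-05). The kinase gene Fyn was higher by 1.48, or by 1.04 and not past the threshold without control mouse 99, and Lyn was at least 3.16-fold higher. The adaptor gene Gab2 was lower by 4.16 and Ptpn6, the SHP-1 gene, lower by 1.39. Ptpn6 did not pass under 5 of the 21 alternatives run, among them the authors' values (-0.71), and lay between -1.47 and -0.56. In germ cells none of the 9 passed between genotypes (limma, 1 at an unadjusted p under 0.05, against 7.34% of all genes), with Grb2 nearest at 0.67 ± 0.20 (adjusted p 0.294).

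Of 13 myelin genes 12 were tested, and between fractions of control mice 4 were higher and 4 lower on the Sertoli side, shares near those of all genes (39.8% and 36.5%). Pmp22, a membrane protein of peripheral myelin that is also found outside nerves, was higher by 7.30 ± 0.19, Mbp by 4.77, Prx by 3.61 and Cnp by 2.73. Mag, Mal and Cldn11, the last a tight junction protein of Sertoli cells as well, were among the lower genes. Cldn11 differed by -1.98, and did not pass without control mouse 73 (-1.31) or 74 (-1.60). In germ cells none of the 12 passed between genotypes (limma, 2 at an unadjusted p under 0.05, against 7.34% of all genes), with Pmp22 at 0.89 ± 0.19 (adjusted p 0.122) and Cnp at 1.14 ± 0.37 (adjusted p 0.355). Pmp22 read -2.32, -2.63 and -2.80 in control and -1.91, -1.41 and -1.75 in knockout germ cells. These did not overlap, as was so in this direction for 6.57% of all genes.

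Genes of germ to Sertoli cell adhesion were taken as a further list of 15, all tested. None passed between genotypes in germ cells (limma, 3 at an unadjusted p under 0.05, against 7.34% of all genes). The same held in the Sertoli fraction (limma, 1 at an unadjusted p under 0.05, against 3.02% of all genes). In germ cells the smallest p belonged to Cdh1 (E-cadherin) at 1.05 ± 0.30, Nectin2 at 0.56 ± 0.20 and Pvr at 0.84 ± 0.31 (limma, adjusted p 0.268, 0.454 and 0.496). Cdh1 read -5.99, -6.69 and -6.16 in control and -5.63, -4.91 and -5.18 in knockout germ cells. Its arrays did not overlap, as was so in this direction for 6.57% of all genes. Between fractions of control mice 7 of the 15 were higher on the Sertoli side, with Ncam1 at 5.78 and Nectin1 at 5.30, and 5 lower, with Cadm1 at -5.83 and Nectin3 at -3.57, again beside 39.8% and 36.5% of all genes. The germ cell medians of the signalling, myelin and adhesion lists were 0.23, 0.15 and 0.17.

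Over the 12 arrays Mpzl1 and Mpzl2 were 1.154 apart in root mean square difference, Mpzl1 and Mpzl3 1.228, and Mpzl2 and Mpzl3 1.521. The median distance of all named genes was 1.282 from Mpzl1, 1.61 from Mpzl2 and 1.128 from Mpzl3. The genes most like Mpzl1 were Tbc1d10b (0.094), Vti1a (0.101), Zfp90 (0.112), Naa60 (0.114) and Golt1b (0.122). Vti1a and Golt1b encode proteins of vesicle transport. Those most like Mpzl3 were Carmil3 (0.122), Galp (0.166), Olfr821 (0.18), Fcer2a (0.184) and Olfr12 (0.188). Carmil3, for instance, had group means between -5.81 and -5.48.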

How the data were processed

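RNA of germ cell and Sertoli cell fractions was hybridised to 12 arrays, 1 per fraction and mouse. Per the file headers, the authors used Agilent Feature Extraction 10.7.3.1 with a grid that names build mm9. Its processed signal, a deposited intensity from which the software had already subtracted the background without normalising between arrays, was the starting point. The authors' deposited log2 values served as an alternative; each column has a median of 8.29 and nearly the order of that array's processed signal (Spearman's rho 0.9999 to 1 across probes), and the normalization behind them is not given in the sources used here. The submitters' processing notes name limma.

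Control spots (1377) and spots marked as outliers were left out, spots of a probe were averaged, and log2 signals were set relative to the 75th percentile of their array. Of 39429 probes, 26055 were named by accession through the RefSeq table of GRCm38.p6. Probes that were well above background throughout some group of 3 arrays were kept (30530 probes), and the probe with the highest mean level stood for a gene (25027 genes, 16590 with a symbol). The 4 group means were fitted over all 12 arrays with limma 3.58.1 in R 4.3.3, with p-values adjusted by the Benjamini-Hochberg method over all genes and a threshold of 0.05. The script was tested on simulated data. The number of arrays limits the precision, and p-values measure the spread between the mice of a group. The main fit did not pair the arrays of a mouse. Its p-values between fractions and for the difference of the knockout effects thus do not measure the spread of differences within mice.

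The germ and Sertoli arrays that share a mouse number stem from 1 animal and are thus paired. The deviations of such a pair from their group means correlated with r of 0.256, 0.283 and 0.203 in mice 120, 86 and 72 and -0.161, -0.115 and 0.462 in mice 99, 73 and 74.

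The members and the gene lists were chosen with earlier results of these data known. Named are the members, Trp73, the 10 (Mpzl2) or 5 (Mpzl1, Mpzl3) genes most like a member, the 5 tested neighbours on each side, and of each list the genes past the threshold or the 3 with the smallest p. Il10ra, Rcsd1, Pdgfra, Aif1 and Cldn3 were singled out after their values were seen. Alternatives covered background correction, scaling, the filter, the choice of probe, slide and mouse as blocks, and leaving out mice. Some listed genes are counted but not reported here by name. The alternatives on the median spot signal and without the array of lowest signal were chosen after seeing the data.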

Additional observations from a re-analysis of the deposited data

How the results depend on the processing

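With the mouse as a replicate block the calls of Mpzl1 and Mpzl3 did not change in any comparison: Mpzl1 differed between fractions of control mice by 2.53 with the mouse as a random or a fixed block. The number of genes called for the difference of the knockout effects went from 2 to 0 with the fixed block. Between fractions it went from 19113 to 19512 (random) and 19778 (fixed) in control mice and from 18775 to 19137 and 19312 in knockout mice, within 1.5 times. Normexp on the mean spot signal was not run, since the files used here hold the median; on the median it could not be fitted for the control Sertoli array of mouse 73, which was left out there.

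For Mpzl2, normexp with 50 added gave 2.43 in germ cells, 2.64 between fractions in control mice and -2.47 for the difference of the knockout effects. Plain subtraction of the local background plus 50 gave 2.40, 2.65 and -2.49. Between fractions Mpzl2 stood at 4.12 (control) and 0.66 (knockout) after quantile normalization, at 4.11 and 1.0 with the array median and at 4.00 and 0.63 in the authors' values. Without both mice titled het, with mouse 99 as the only control, the control value was 3.84 and the difference of the knockout effects -3.69. Leaving out 1 mouse gave 3.12 to 3.47 in germ cells and -0.17 to 0.09 in the Sertoli fraction.

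Mpzl1 kept its direction and its side of the threshold in all 5 comparisons under every alternative run. Mpzl3 did not. In germ cells it was -0.41 as the mean of its probes and -0.12 among 8-month-old mice, and -0.17 to 0.63 without single mice. In Sertoli samples it was 0.26 without the het mice, 0.32 without the control Sertoli array of mouse 74 and -0.52 to 0.32 without single mice. Between fractions of control mice it was 1.19 (quantile), 1.0 (array median), 1.17 (authors' values), -0.04 (mean of probes) and -0.21 (without that array). In knockout mice it was 0.19 (normexp), 0.16 (subtraction), 1.11 (quantile), 0.81 (array median) and 1.10 (authors' values), and -0.21 to 0.15 without single mice. The difference of the knockout effects was 0.04 as the mean of probes and 0.16 without that array. The cause was not tested.

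The number of genes called in germ cells, 55, was 17 (normexp), 25 (subtraction) and 28 (array median, and also with no filter). It was 1 among 8-month-old mice and 3 to 130 without single mice. In the Sertoli fraction it was 0 to 5 without single mice. For the difference of the knockout effects it was 0 (normexp, 8-month-old mice), 1 (quantile, array median, authors' values) and 4 (well above background on all 12 arrays). Without single mice it was 0 to 3. Of the genes named singly, F11r was -0.20 in germ cells and Cldn11 0.13 between fractions without the het mice. That setting leaves mouse 99 as the only control. Dim signal limits Mpzl3 on both probes and Mpzl2 in control germ cells.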
